A study of Mus musculus with 2 samples.

Results

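Type 2 innate lymphoid cells (ILC2s) are the subject here, taken as the 61 barcodes that met a marker gate among 21117 barcodes that passed the filters: 25 of 8032 in the knockout library and 36 of 13085 in the wild-type library. They were selected on their transcripts. A barcode needed at least 1500 unique molecular identifiers (UMIs, each standing for 1 captured mRNA molecule) from at least 500 genes, no more than 15% of them mitochondrial. It also needed at least 3 UMIs of Gata3, Rora and Il1rl1 together and at least 1 UMI of Il7r, with at most 1 UMI of the Cd3d, Cd3e and Cd3g genes of the T-cell receptor complex and at most 1 of the natural killer (NK) genes Ncr1, Klrb1c and Klre1. Limits of 10 UMIs per 10000 barcode UMIs for the mast cell gene Cpa3, of 10 for the C1q genes of macrophages and of 30 for Col1a1, Col3a1 and Dcn of fibroblasts removed other cells. Levels of these genes in the gate are therefore descriptions of the choice and carry no test.

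The study profiled single cells from the stromal vascular fraction of mouse epididymal white adipose tissue, which is what remains of digested fat once the fat-laden adipocytes are gone. Each genotype gave 1 library: a myeloid conditional knockout of Camk2d (Camk2d-CKO), a gene for 1 of the subunits of the kinase CaMKII, which calcium and calmodulin switch on, and a wild type (WT). Both groups had eaten a high-fat diet for 10 weeks. The Cre driver, the deleted exons, the number of animals pooled, their sex and their age are not given in the sources used here. ILC2s are lymphoid and not myeloid cells, and a 3' library can miss an internal deletion, so Camk2d in these cells checks no label. Since genotype, library and animal cannot be told apart, no difference between genotypes was tested; every interval is a 95% interval and covers counting error only.

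ILC2s are tissue-resident lymphocytes without a rearranged antigen receptor. They depend on the transcription factors Gata3 and Rora and on interleukin 7, and they answer the alarmin interleukin 33 through its receptor ST2, the product of Il1rl1, by releasing interleukin 5 and interleukin 13. In fat, interleukin 5 sustains eosinophils and interleukin 13 acts on macrophages and on the progenitors of adipocytes. These cells are known to be associated with the lean state and with the beiging of fat.

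The gate held a pair of unlike sets of barcodes. In 49 of the 61, Gata3, Rora and Il1rl1 together made up at least 5 of every 10000 UMIs; they are called marker-rich below, and that limit was chosen after seeing the data. The 18 marker-rich knockout barcodes held 2265 to 8548 UMIs each (median 4936.5), with Gata3 detected in 14. Their median marker rate was 21.6 per 10000. The 31 marker-rich wild-type barcodes held 1803 to 8548 UMIs each (median 3800), with Gata3 detected in 23. Their median marker rate was lower, at 14.7 per 10000. How far ratios between the libraries follow this difference in marker rate was not tested. The 12 others, called marker-poor, reached 3 marker UMIs at a lower rate: 7 knockout barcodes of 8812 to 87232 UMIs, none with Gata3, and 5 wild-type barcodes of 6166 to 44248 UMIs, of which 1 had Gata3. Of the 12, 10 held more UMIs than any marker-rich barcode, and 2 wild-type ones (6298 and 6166 UMIs) did not. These 12 held 70.8% of the knockout gate's UMIs and 41.3% of the wild-type gate's UMIs.

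Judged by medians, genes of antigen-presenting and phagocytic cells stood high in the marker-poor barcodes. Their median of Cd74, the invariant chain of MHC class II, was 67.3 (knockout) and 58.4 (wild type) UMIs per 10000, against 0.666 and 5.92 in the marker-rich barcodes. Their median of the lysozyme gene Lyz2 was 11.5 and 16.2, against 2.22 and 4.33. Il2ra and Klrg1, receptors found on ILC2s, had 0 UMIs in all 12, whereas Il2ra was detected in 16 of 18 and 14 of 31 marker-rich barcodes and Klrg1 in 14 and 16. The deepest, a knockout barcode of 87232 UMIs, lay in a cluster led by the macrophage genes Trem2, Gpnmb and Mmp12. An exception was a wild-type barcode of 6298 UMIs with a marker rate of 4.76 per 10000, just under the limit. It had 3 UMIs of Cd74, 0 of Lyz2, 1 of Gata3, 2 of Trac and 2 of Trbc1, and it lay in the cluster of most marker-rich barcodes. The name ILC2 is thus used below as shorthand for the marker-rich barcodes. Some of these carried genes of T cells or dendritic cells, as described below, and they stay in all values. Values are given for the whole gate where it was the unit chosen.

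**Figure D1:**
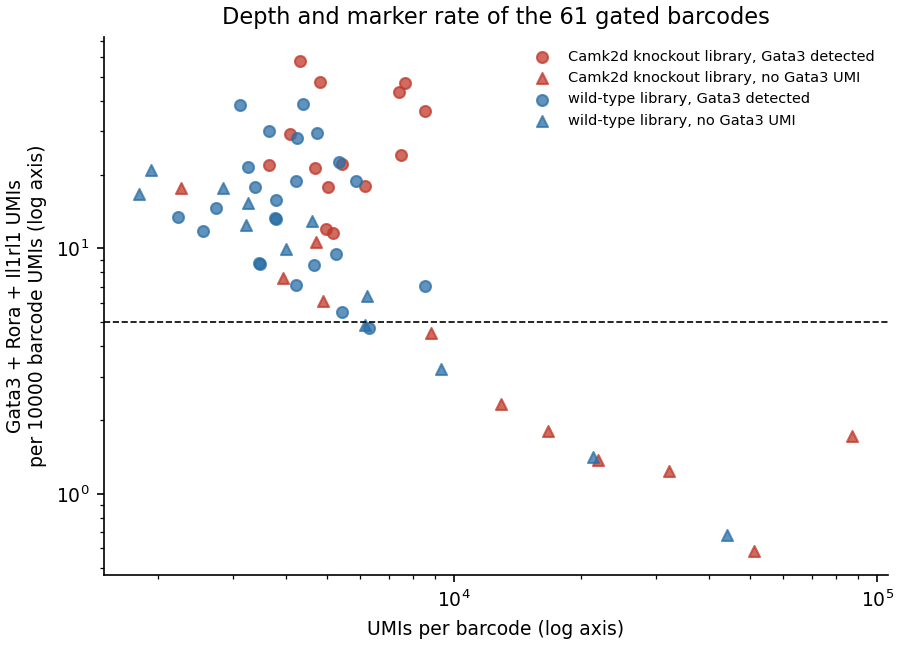
Each point is 1 of the 61 gated barcodes, placed by its UMIs (log axis) and by its UMIs of Gata3, Rora and Il1rl1 per 10000 (log axis), coloured by library; triangles have no Gata3 UMI and the dashed line marks 5 per 10000. The 49 barcodes above the line reach 8548 UMIs at most, and those below it run up to 87232 UMIs with Gata3 in 1 of 12.

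At the edge of the rule, 6 knockout barcodes entered with exactly 3 marker UMIs (median rate 2.06 per 10000) and 12 wild-type barcodes did (6.31). Just outside, with 2 marker UMIs and all other limits met, stood 19 knockout barcodes (1.13 per 10000) and 23 wild-type barcodes (5.16). The knockout barcodes at the edge were deep ones, with medians of 14773.5 UMIs inside and 17672 outside, and the wild-type ones were not, with 4829 and 3879. A fixed UMI minimum thus admitted barcodes of unlike marker rate in the libraries, whose passing barcodes had medians of 9652 and 3799 UMIs.

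ILC2s were a rare population in both libraries. The gate held 0.311% of knockout barcodes (exact Clopper-Pearson interval 0.202 to 0.459) and 0.275% of wild-type barcodes (0.193 to 0.381). The marker-rich barcodes made up 0.224% (0.133 to 0.354) and 0.237% (0.161 to 0.336). The libraries' intervals overlap in both cases. They cover counting error only, and a difference in share between the genotypes was not tested. When every passing barcode was first thinned to 1500 UMIs, 10 knockout and 12 wild-type barcodes met the gate, or 0.125% and 0.0917%.

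Among barcodes of the T, NK and ILC2 gates, the order of the gate's shares was reversed. The whole gate held 25 of 1265 knockout barcodes (1.98%, 1.28 to 2.90) and 36 of 1068 wild-type barcodes (3.37%, 2.37 to 4.64). Its marker-rich barcodes were 18 of the 1265 (1.42%, 0.845 to 2.24) and 31 of the 1068 (2.90%, 1.98 to 4.09). The T gate, the denominator's main part, held 13.1% of knockout barcodes and 6.34% of wild-type barcodes. How tissue digestion or cell recovery moved these shares was not tested.

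**Figure D2:**
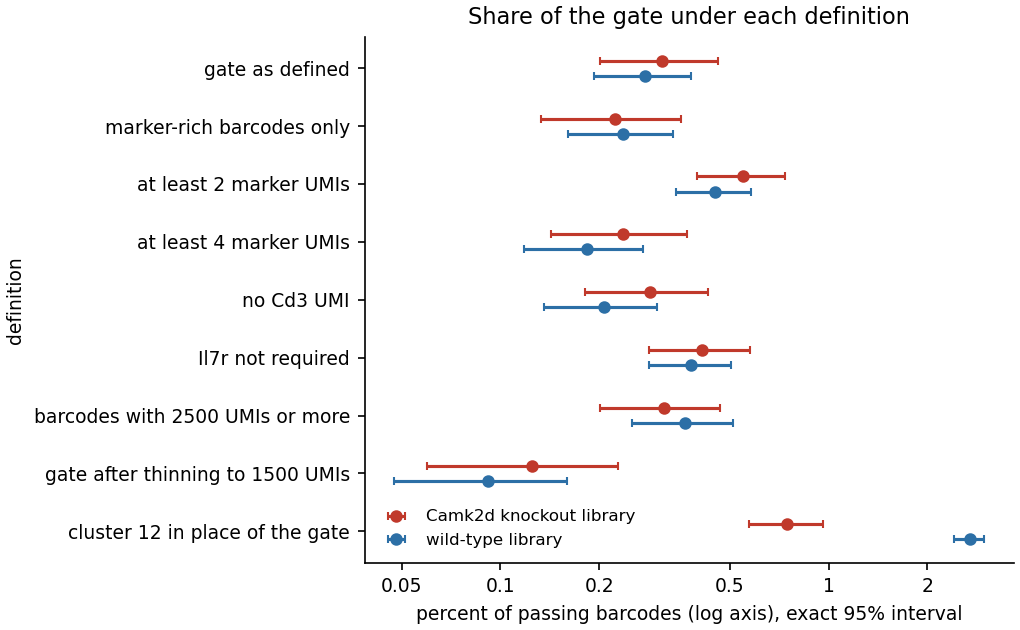
Points give the percent of passing barcodes (log axis) that met each definition in the knockout (red) and wild-type (blue) library, with exact 95% Clopper-Pearson bars that cover counting error only. The gate as defined stands at 0.311% and 0.275%, and the libraries' bars overlap in every definition except the whole of cluster 12, at 0.747% and 2.69%.

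Clustering of all passing barcodes without the gate genes put 47 of the 61 into 1 cluster, cluster 12: 18 knockout barcodes, all marker-rich, and 29 wild-type barcodes, of which 28 were marker-rich. Areg, Ccl1, Tnfrsf4 and Ramp3 were among the genes that led that cluster. Most of it lay outside the gate. It had 60 knockout barcodes, of which 35 were in the T gate, and 352 wild-type barcodes, of which 142 were in the T gate and 145 had no UMI of Gata3, Rora or Il1rl1. Of the 3 marker-rich wild-type barcodes outside it, 1 lay in a cluster led by the dendritic cell genes Clec9a and Xcr1, and it had 101 UMIs of Cd74 together with 14 of Areg among 8548. Another lay in a cluster led by the T-cell genes Cd8b1 and Cd8a, and it had 2 UMIs of Cd8b1, 1 of Trac, 4 of Trbc2, 1 of Cd5 and 2 of Cd6. The third lay in cluster 15, in which 184 of 256 wild-type barcodes were in the T gate. All 3 are counted as marker-rich below. Most marker-poor barcodes lay in clusters led by macrophage, monocyte, dendritic cell and cycling genes. A doublet score of 0.25 or more was given to 335 knockout and 370 wild-type barcodes, and to 0 in the gate. The libraries shared 48 barcode sequences, of which 0 were in the gate.

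T cells with the same marker genes served as the comparison: barcodes with at least 5 marker UMIs per 10000, Il7r, and 2 or more UMIs of Cd3d, Cd3e and Cd3g. There were 131 of these Cd3-positive counterparts in the knockout library (1.63% of passing barcodes) and 106 in the wild type (0.810%). Of them, 18 knockout and 29 wild-type barcodes lay in cluster 12 with most ILC2s. More of them, 37 and 59, lay in cluster 15, which was led by Cd163l1, Actn2 and Cxcr6. The counterpart thus spans several clusters, and how close it is to ILC2s was not tested. In the marker-rich ILC2s, transcripts of the antigen receptor's beta constant genes were nonetheless common. Trbc2 reached 399 and 274 CPM (UMIs per 1000000 UMIs of the summed barcodes) in knockout and wild-type ILC2s, against 880 and 590 in the counterpart. Trac, the alpha constant gene, was lower in ILC2s: 1 UMI in 18 knockout barcodes and 6 UMIs in 31 wild-type barcodes, or 10.5 and 48.4 CPM against 310 and 130 in the counterpart. Unrearranged Trbc transcripts are known from innate lymphocytes. Any of Trac, Cd5, Cd6, Cd4 and Cd8 was detected in 1 of 18 and 6 of 31 marker-rich barcodes. A wild-type one of 4620 UMIs had 3 UMIs of Cd6, 1 of Cd4 and 1 of Trac, and 0 of Gata3. The delta constant gene Trdc was not part of that count. Whether some marker-rich barcodes are T cells with little Cd3 captured was not tested.

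Markers of other innate lymphocytes and of eosinophils were at or near 0. The summed markers of ILC1s, NK cells and ILC3s were at 0 in 17 of 18 knockout and 30 of 31 wild-type marker-rich barcodes. Tbx21, Gzmb, Ifng and Il22, which the gate did not use, were at 0 UMIs throughout. Ncr1, Klrb1c and Klre1 are part of that sum and were limited by the gate, so their low counts describe the choice. The eosinophil genes Siglecf, Prg2 and Epx were at 0 too. Transcripts of other cell types differed in level between the libraries: summed fibroblast markers ran from 0 to 6.13 per 10000 in knockout ILC2s (median 0.666) and from 1.17 to 22.0 in wild-type ILC2s (median 11.1). Summed macrophage and dendritic cell markers ran from 0 to 9.92 (median 4.34) and from 3.51 to 27.97 (median 10.2). The fibroblast sum includes Col1a1, Col3a1 and Dcn and the macrophage sum the C1q genes, all of which the gate limited in both libraries. Beta-globin Hbb-bs reached 1753 CPM in knockout and 9631 CPM in wild-type ILC2s. Lyz2 was likewise lower in knockout than in wild-type B cells, at 149 against 386 CPM. B cells, a lymphoid population that should lack many of the genes described here, stand beside some values below, and the part of free RNA in any value was not tested.

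Several genes known from ILC2s, which the gate did not use, were among those that stood highest in marker-rich ILC2s over all other passing barcodes. Il5 was 413-fold higher (knockout library) and 411-fold higher (wild-type library), and Csf2, the gene of the growth factor GM-CSF, 274-fold and 288-fold. Klrg1, an inhibitory receptor, was 120-fold and 66.1-fold higher. Areg, the epidermal growth factor family ligand amphiregulin, was 55.6-fold and 59.0-fold higher, Arg1 (arginase 1) 181-fold and 42.6-fold, and Il2ra (the alpha chain of the interleukin 2 receptor) 48.7-fold and 31.9-fold. Calca, the precursor gene of calcitonin and of the neuropeptide CGRP, was 483-fold and 264-fold higher. The chemokine gene Ccl1, whose receptor is Ccr8, was 1836-fold and 175-fold higher. Genes without such a known role stood as high: Ccdc184 was 963-fold and 354-fold higher, and Nrgn, which encodes the calmodulin-binding protein neurogranin, 145-fold and 76.5-fold. These folds describe barcodes picked for related genes and are not tests. Among the 20 leaders of the whole gate, Mmp12, a macrophage elastase gene, appears at 64.8-fold and 5.70-fold.

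Il5, Il13 and Csf2 lie close together on mouse chromosome 11, and the sequence before each is shown because they are neighbours and 8 of the 9 ILC2s with Il5 also had Csf2. On build GRCm38 (mm10), Il5 spans chr11:53720794-53725106 on the plus strand, Il13 chr11:53631324-53634702 on the minus strand and Csf2 chr11:54247271-54249667 on the minus strand. The annotated starts of Il5 and Il13 are 86092 bases apart, and those of Il5 and Csf2 528873. The RefSeq start of Csf2 lies upstream of this one. The 250 bases before each RefSeq start (GRCm38.p6) follow, 5′ to 3′ on the gene's own strand, at chr11:53720544-53720793 (plus strand) for Il5, chr11:53634703-53634952 (minus strand) for Il13 and chr11:54249900-54250149 (minus strand) for Csf2. Capitals mark matches, on either strand, to 4 words: AGATAA, its form that ends in G (AGATAG), its form that begins with T (TGATAA) and its form with both changes (TGATAG), the letters that factors of the GATA family, Gata3 among them, are known to bind.
Il5: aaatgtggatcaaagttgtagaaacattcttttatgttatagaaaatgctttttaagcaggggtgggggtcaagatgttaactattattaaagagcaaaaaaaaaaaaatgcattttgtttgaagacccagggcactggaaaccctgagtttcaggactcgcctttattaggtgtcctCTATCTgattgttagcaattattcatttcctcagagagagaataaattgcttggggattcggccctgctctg
Il13: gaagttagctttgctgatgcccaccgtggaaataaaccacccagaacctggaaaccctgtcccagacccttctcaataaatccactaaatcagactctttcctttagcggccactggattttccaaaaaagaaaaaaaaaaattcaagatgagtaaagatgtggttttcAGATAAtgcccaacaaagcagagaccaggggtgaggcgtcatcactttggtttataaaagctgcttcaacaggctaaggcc
Csf2: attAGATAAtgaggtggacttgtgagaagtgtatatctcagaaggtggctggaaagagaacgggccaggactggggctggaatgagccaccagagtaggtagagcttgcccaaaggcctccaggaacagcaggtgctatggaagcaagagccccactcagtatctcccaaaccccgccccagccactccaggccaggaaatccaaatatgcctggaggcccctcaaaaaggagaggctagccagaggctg
Each window holds 1 match, starting 72 bases before the start of Il5 (reverse strand), 81 before that of Il13 and 247 before that of Csf2. Of 32817 such windows of mouse genes, 8714 (26.6%) hold a match, and a match is a description of letters and not a bound site.

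Il5 was carried by few ILC2s. In the knockout, 4 of 18 marker-rich barcodes had it, with 19, 2, 1 and 1 UMIs. In the wild type, 5 of 31 had it, with 8, 3, 2, 1 and 1 UMIs. Summed over barcodes, Il5 reached 241 CPM in knockout ILC2s and 121 CPM in wild-type ILC2s, a log2 ratio (knockout level divided by wild-type level) of 1.00 (-0.00 to 2.04). A single knockout barcode held 82.6% of the knockout's UMIs; without it the ratio was -1.41 (-3.45 to 0.25), so the direction rests on 1 cell. Il5 stood at 57.0 and 10.1 CPM in the Cd3-positive counterpart and at 0 UMIs in B cells and NK cells of both libraries.

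Nearly all Il13 UMIs of marker-rich ILC2s came from the knockout library. It had 30, 20 and 1 UMIs in 3 of 18 knockout barcodes and 1 UMI in 1 of 31 wild-type barcodes. The levels were 535 and 8.06 CPM, a log2 ratio of 6.05 (3.51 to 11.38), and of 4.89 (2.26 to 10.26) without the knockout barcode that held the most. The knockout UMIs left are then 20 in 1 barcode and 1 in another, beside 1 wild-type UMI. The size of the ratio thus rests on the barcodes with 30 and 20 UMIs. The groups overlap barcode by barcode, since 15 of the 18 knockout barcodes had no Il13. In B cells Il13 was at 0 and 0.306 CPM.

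Csf2 had 34 UMIs in 8 knockout barcodes (1 to 13 each) and 13 UMIs in 9 wild-type barcodes (1 to 3 each). This came to 357 and 105 CPM, a log2 ratio of 1.77 (0.81 to 2.81), and of 1.19 (0.12 to 2.31) without the highest barcode. Il4, another type 2 cytokine gene, had 1 UMI in knockout ILC2s and 0 in wild-type ILC2s, and Il9 and Il3 had 0 in both.

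These cytokines met in some barcodes and not in others. Of 49 marker-rich barcodes, 9 had Il5, 17 had Csf2 and 4 had Il13; 19 had any of the 3 genes and 3 had all of them. Of the 9 with Il5, 8 also had Csf2, all 9 had Klrg1, and 3 had Il13. The knockout barcode with the most Il5 (19 UMIs of 7640) also had the most Il13 (30) together with 8 UMIs of Calca, 6 of Areg, 6 of Arg1 and 3 of Csf2. The next Il13 carrier (20 UMIs) had 38 UMIs of Areg, the highest count of that gene. The wild-type barcode with 8 UMIs of Il5 had 8 of Areg and none of Il13. ILC2s with Il5 had a median marker rate of 33.6 (knockout) and 29.5 (wild type) per 10000, against 17.9 and 13.4 in those without it, and median depths of 7456 and 3800 UMIs against 4860 and 3888.

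Areg had the most UMIs among the listed mediators. In knockout ILC2s it ran from 0 to 50.6 UMIs per 10000 with a median of 6.08, and was detected in 13 of 18. In wild-type ILC2s it ran from 0 to 40.4 with a median of 2.10, and was detected in 17 of 31. The summed levels were 1407 and 677 CPM, a log2 ratio of 1.06 (0.65 to 1.47), which was 0.69 (0.25 to 1.13) without the highest barcode. The libraries' marker-rich barcodes also differed in median marker rate (21.6 and 14.7 per 10000). The part of that difference in this ratio, and in those of other ILC2 genes, was not tested. The counterpart had 449 and 245 CPM of Areg, and B cells 2.08 and 2.14. Over the whole gate, whose UMIs come largely from the marker-poor barcodes, Areg stood at 506 and 431 CPM, Il5 at 70.5 and 71.0 CPM, Il13 at 156 and 4.73 CPM, Csf2 at 104 and 61.5 CPM and Klrg1 at 104 and 114 CPM.

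Calca and Ccl1 were not seen in the same barcode: 13 marker-rich barcodes had Calca, 10 had Ccl1, and 0 had both. With so few carriers in each library, this does not show separate sets of ILC2s. Calca had 19, 10, 8 and 2 UMIs in 4 knockout barcodes and 1 to 8 UMIs in 9 wild-type barcodes, or 409 and 226 CPM (log2 ratio 0.86, 0.12 to 1.61). Without the highest barcode its ratio was -0.04 (-0.94 to 0.84). Ccl1 had 48 UMIs in 7 knockout barcodes (1 to 20 each) and 25 UMIs in 3 wild-type barcodes (17, 6 and 2), or 504 and 201 CPM (log2 ratio 1.32, 0.60 to 2.08). Without the highest barcode its ratio was 0.62 (-0.21 to 1.46). Of the barcodes with Calca 5 of 13 had Il5, and of those with Ccl1 2 of 10. At 49 barcodes these counts describe the sample only.

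Arg1, which degrades arginine and is known from ILC2s as well as from macrophages, was detected in 4 of 18 and 10 of 31 marker-rich barcodes. Its levels were 157 and 145 CPM, a log2 ratio of 0.12 (-0.97 to 1.19), against 0 and 1.22 CPM in B cells. Over Il5, Il13, Csf2, Areg, Calca, Ccl1 and Arg1, 3 of 18 knockout and 8 of 31 wild-type barcodes had none, and 4 and 3 had 4 or more. The 8 wild-type barcodes with none had a median of 2973.5 UMIs against 4229 in the rest, and the 3 knockout ones 4894 against 4979.

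**Figure D3:**
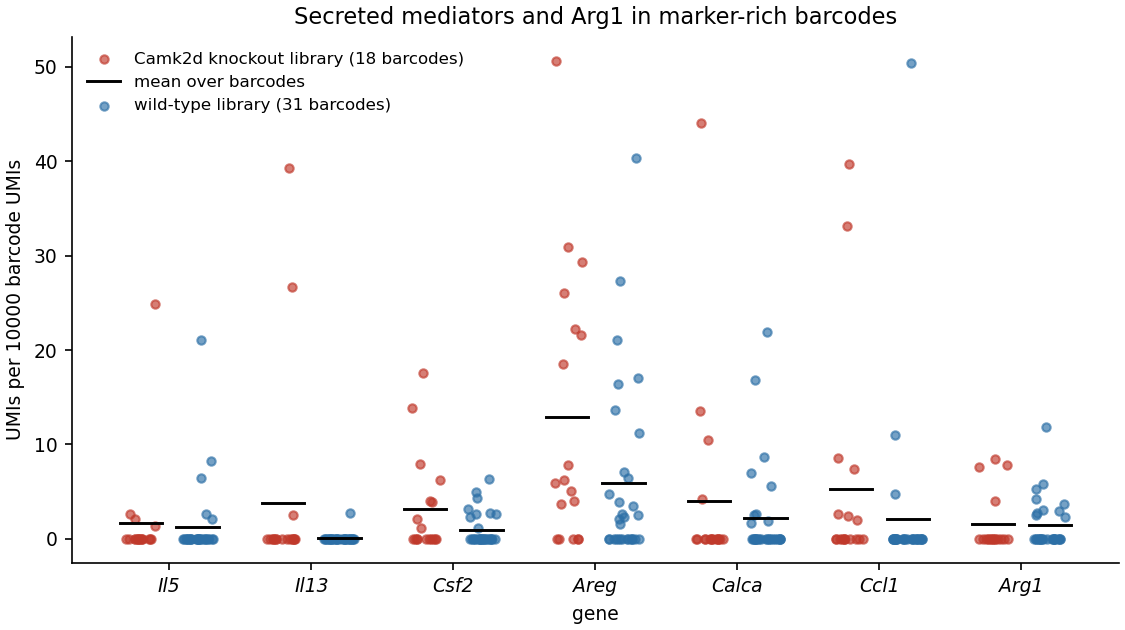
Each point is 1 marker-rich barcode, with the UMIs of a gene per 10000 barcode UMIs on the vertical axis, for 18 knockout (red) and 31 wild-type (blue) barcodes; bars are means over barcodes. Most barcodes lie at 0 for every gene except Areg, and single barcodes such as the knockout one at 39.3 for Il13 set the means.

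Deeper barcodes detect more genes, so each barcode was also thinned to 1500 UMIs and the share with a UMI averaged over all possible draws. Il5 was then detected in 10.4% of ILC2s in both libraries, against 22.2% and 16.1% unthinned. Areg was detected in 58.7% and 36.9%, Csf2 in 26.5% and 13.04%, Il13 in 13.2% and 1.33%, and Il2ra in 50.5% and 26.7%. Klrg1 was detected in 39.4% and 25.6%, Calca in 18.1% and 17.6% and Arg1 in 15.5% and 16.9%. In B cells, thinned alike, the share was at most 0.614% for any of these genes.

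The gate, 0.311% and 0.275% of barcodes, held a larger share of several type 2 transcripts. Il5 had 72 UMIs in all passing knockout barcodes, of which 31.9% (21.4 to 44.0) lay in the gate and 63.9% in 4 barcodes of the Cd3-positive counterpart. In the wild type it had 36 UMIs, of which 41.7% (25.5 to 59.2) lay in the gate and 13.9% in the counterpart. As many wild-type Il5 UMIs, 41.7%, lay outside the ILC2, T and NK gates, in 13 barcodes, against 2.78% in the knockout. Of 82 knockout UMIs of Il13, 62.2% (50.8 to 72.7) lay in the gate. Of 31 wild-type UMIs, 3.23% did and 93.5% lay outside the ILC2, T and NK gates, in 24 barcodes. Of Ccl1, 67.6% of 71 knockout UMIs and 23.4% of 107 wild-type UMIs were in the gate. Outside the ILC2, T and NK gates lay 1.41% of knockout and 64.5% of wild-type Ccl1 UMIs. Areg was more widely spread, with 7.33% of 2252 and 10.1% of 904 UMIs in the gate. No UMI of Il5 or Il13 came from the marker-poor barcodes. These intervals treat UMIs as independent, although 1 knockout barcode held 19 UMIs of Il5 and 30 of Il13.

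**Figure D4:**
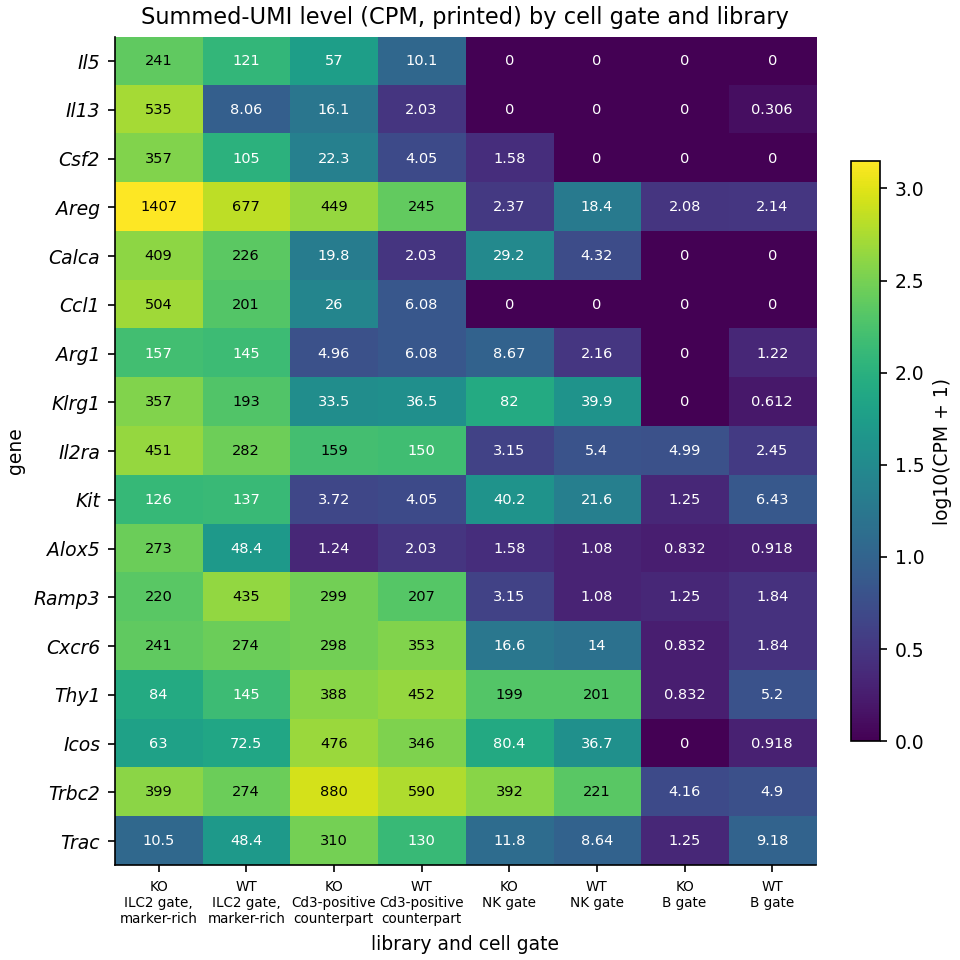
Colour gives log10(CPM + 1) and the printed numbers the CPM, summed over the barcodes of each gate in the knockout (KO) and wild-type (WT) library. Il5, Il13, Csf2, Ccl1 and Arg1 are highest in the marker-rich ILC2 columns of at least 1 library and at or near 0 in B cells, whereas Trac and Icos are highest in the Cd3-positive counterpart.

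The cytokine receptors of ILC2s were detected in both libraries. Of 20 listed cytokine and alarmin receptor genes, 8 reached 10 UMIs in the higher library, and 0 of the 8 were 2-fold apart, with a median log2 ratio of 0.62. Over all 1684 genes at that minimum, 133 (7.9%) exceeded the wild type 2-fold or more in knockout ILC2s and 321 (19.1%) stood 2-fold or more below it, with a median of -0.18. Il2ra had 451 and 282 CPM (log2 ratio 0.68, 0.00 to 1.36), Il2rb 231 and 137 CPM, and Il2rg, the common gamma chain, 441 and 282 CPM. Il4ra, the shared chain of the interleukin 4 and 13 receptors, had 199 and 113 CPM. The gate's own Il1rl1 stood at 682 and 347 CPM and Il7r at 1176 and 733 CPM, values that the choice of barcodes touches. Kit, the stem cell factor receptor, had 126 and 137 CPM in ILC2s (log2 ratio -0.12, -1.32 to 1.03) against 3.72 and 4.05 in the counterpart.

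Among 22 surface and costimulatory receptors, 13 reached the minimum, of which 2 exceeded the wild type 2-fold or more and 2 were as far below it, with a median of -0.25. At 13 genes these counts are near the 7.9% and 19.1% over all genes. Tnfrsf18, which encodes the costimulatory receptor GITR, was one of the higher ones at 535 and 250 CPM (log2 ratio 1.10, 0.43 to 1.79), detected in 17 of 18 and 17 of 31 barcodes. Klrg1 had 34 UMIs in 14 knockout barcodes and 24 UMIs in 16 wild-type barcodes, 357 and 193 CPM (log2 ratio 0.88, 0.09 to 1.70). Tnfrsf4, which encodes OX40, had 0 UMIs in knockout and 15 in wild-type ILC2s. Cd44, the hyaluronan receptor, was lower at 73.5 and 250 CPM (log2 ratio -1.77, -3.19 to -0.55).

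ILC2s also sense neuropeptides, lipids and chemokines. Ramp3, a partner protein of calcitonin family receptors, had 21 and 54 UMIs, or 220 and 435 CPM (log2 ratio -0.98, -1.78 to -0.23), and Ramp1, the partner of the CGRP receptor, 283 and 226 CPM. Nmur1, the neuromedin U receptor of ILC2s, had 0 UMIs in both libraries. Ltb4r1, a leukotriene B4 receptor, had 136 and 193 CPM, and Cxcr6, a chemokine receptor that guides tissue lymphocytes, 241 and 274 CPM (log2 ratio -0.18, -1.01 to 0.62). The prostaglandin D2 receptor gene Ptgdr2 had 0 UMIs in both.

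Of 19 genes of lipid mediators and lipid handling, 9 reached the minimum; 2 exceeded the wild type 2-fold or more and 6 were as far below it, with a median of -1.73, beside 7.9% and 19.1% of the 1684 genes and their median of -0.18. The higher ones were Alox5, the 5-lipoxygenase gene, with 26 UMIs in 13 knockout barcodes and 6 UMIs in 6 wild-type barcodes (273 and 48.4 CPM, log2 ratio 2.50, 1.18 to 4.07), and Dgat1, which makes triglyceride. Alox5 stood near 1 CPM in B cells of both libraries (0.832 and 0.918). Among the lower ones were the fatty acid transporter gene Cd36 (73.5 and 314 CPM), the lipid droplet gene Plin2 (41.99 and 226 CPM) and the fatty acid binding protein genes Fabp4 (73.5 and 274 CPM) and Fabp5 (31.5 and 153 CPM). B cells had less Plin2, Fabp5 and Cd36 in the knockout library too, at 29.5 against 125 CPM for Plin2, 22.5 against 99.2 for Fabp5 and 92.4 against 178 for Cd36. The part of free RNA in these genes was not tested.

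The transcription factors that define the lineage were present in both libraries. Id2, which opposes the T-cell fate, had 546 and 411 CPM, and Bcl11b, needed for ILC2 identity, 94.5 and 153 CPM. Ets1 had 630 and 556 CPM and Bhlhe40, a factor of cytokine-producing lymphocytes, 483 and 306 CPM. Of 15 listed factors 8 reached the minimum, and 1 was 2-fold apart: Zeb2, with 1 UMI in knockout and 34 in wild-type ILC2s (log2 ratio -4.71, -10.05 to -2.13). At 8 genes this count is near the 7.9% higher and 19.1% lower over all genes. Zeb2 is also high in macrophages, and in B cells it stood at 94.4 and 139 CPM.

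The pathway downstream of interleukin 33 runs through NF-kB. Nfkb1, its p50 subunit gene, had 160 and 85 UMIs, or 1680 and 685 CPM (log2 ratio 1.29, 0.91 to 1.69). Without the highest barcode its ratio was 0.99 (0.58 to 1.41). Its inhibitor gene Nfkbia had 2666 and 2071 CPM (log2 ratio 0.36, 0.11 to 0.62) and the feedback gene Tnfaip3 1102 and 1048 CPM (0.07, -0.31 to 0.46). Of 20 genes listed for this pathway and for common gamma chain signalling, 11 reached the minimum, with 1 at least 2-fold higher in the knockout, 1 lower and a median of 0.07, counts near the shares over all genes.

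Immediate early genes, which tissue digestion is known to induce, were abundant in ILC2s. Of 18 listed, 16 reached the minimum, with 1 at least 2-fold higher, 2 lower and a median of 0.24, also near those shares. Jund was higher at 4493 and 2039 CPM (log2 ratio 1.14, 0.91 to 1.37), Egr1 lower at 126 and 508 CPM (-2.01, -3.04 to -1.11) and Atf3 lower at 168 and 363 CPM (-1.11, -2.03 to -0.26). In B cells Jund stood at 1997 and 2000 CPM, Egr1 at 190 and 352 CPM and Atf3 at 282 and 470 CPM. Fos (651 and 596 CPM) and Junb (3317 and 2877 CPM) lay closer together.

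Among genes of energy metabolism, 0 of 5 glycolysis genes at the minimum were higher in the knockout and 1 was lower (median -0.48), and 1 of 11 genes of oxidative phosphorylation was higher and 0 lower (median -0.15). Of the calmodulin kinase, calcineurin and NFAT genes 5 reached the minimum, with 0 higher and 1 lower (median -0.32). The lower one was Camk2d itself, with 5 UMIs in 5 of 18 knockout ILC2s and 14 UMIs in 9 of 31 wild-type ILC2s, or 52.5 and 113 CPM; the interval of its log2 ratio, -1.10 (-2.93 to 0.45), includes 0. In B cells Camk2d had 181 and 163 CPM. At 5, 11 and 5 genes, the counts of these lists are near the 7.9% and 19.1% over all genes, whose median was -0.18.

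Of 8 cell cycle genes, 1 was detected in knockout and 6 in wild-type ILC2s. Over all 32285 genes, 7176 were detected in knockout and 8966 in wild-type ILC2s, which summed to 95261 and 124074 UMIs. At the few UMIs of these cell cycle genes, a difference between the libraries was not tested. Pcna, the DNA replication clamp, had 9 UMIs in 6 of 18 knockout barcodes and 15 UMIs in 14 of 31 wild-type barcodes. The proliferation genes Mki67 and Top2a had 3 and 4 UMIs in wild-type barcodes and 0 in knockout ones, and the mitotic genes Cdk1 and Ccnb1 had 0 in both.

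Over all genes, the whole gate and its marker-rich part gave opposite balances. Genes entered this count with 100 CPM averaged over the libraries and with 30 UMIs in the higher one. Among 1224 such genes of the whole gate, 177 (14.5%) lay 2-fold or more above the wild type and 80 (6.54%) lay 2-fold or more below it. Among 457 such genes of the marker-rich barcodes, 36 (7.88%) were higher and 61 (13.3%) lower. Scaling by the median of ratios in place of total UMIs raised log2 ratios by 0.11 in the gate (210 higher and 66 lower) and changed them by -0.16 in its marker-rich part.

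Most extremes of the whole gate rested on single barcodes. Mmp19, a metalloproteinase gene, had 316 knockout UMIs, of which 310 were in 1 barcode, and 3 wild-type UMIs, a log2 ratio of 6.09 that was 0.82 (-1.40 to 3.45) without it. Neat1, a nuclear noncoding RNA, had 1292 and 54 UMIs (log2 ratio 3.95), with 1241 in 1 barcode, and its ratio was -0.26 without it. Mfge8, a bridging protein for dying cells, had 16 and 565 UMIs (log2 ratio -5.77), with 562 in 1 wild-type barcode, and its ratio was 1.45 without it. Of the 12 highest ratios all 12, and of the 12 lowest 9, had over 50% of the higher library's UMIs in 1 barcode. The proliferation genes Mki67 (85 and 5 UMIs) and Top2a (75 and 4) were among the highest, with 61.2% and 62.7% of the knockout UMIs in 1 barcode. Selenop, a selenium carrier gene of macrophages (15.6% in 1 barcode), was among the few that were spread, at a log2 ratio of -2.08.

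In the marker-rich barcodes, 2 of the 12 highest and 5 of the 12 lowest ratios had over 50% in 1 barcode. After Il13, the highest included Errfi1, a feedback inhibitor of epidermal growth factor receptors (37 and 5 UMIs, log2 ratio 3.27), Furin, a protease that cuts proproteins (66 and 20, 2.10), the chemokine gene Cxcl2 (160 and 52) and the heparan sulfate sulfotransferase gene Hs3st1 (1.77). Csf2, the NF-kB subunit gene Rel (52 and 21, 1.69), Rrad, Srgn (284 and 141, 1.39) and Ptprcap were also among them. The lowest were led by H2-Eb1, an MHC class II gene (1 and 77 UMIs, log2 ratio -5.89, with 63.6% in 1 wild-type barcode), Zeb2, Efhd2 (1 and 30), Lpl (3 and 75) and Fn1 (2 and 34). The class II genes Cd74 (13 and 185 UMIs) and H2-Aa and the dendritic cell gene Cst3 (16 and 195) were each carried over 50% by 1 wild-type barcode. The macrophage genes Ctsb (8 and 86, log2 ratio -3.05) and Lgals3 (13 and 134, -2.98) were spread over barcodes, with 8.14% and 12.7% in 1. Fibroblast markers differed in the same direction, with 5 of 5 measured at least 2-fold lower in the knockout (median -2.43), as did 4 of 5 macrophage and dendritic cell markers (median -1.39). Over all 1684 genes with 10 UMIs in the higher library, 19.1% were as far below the wild type, with a median of -0.18. Both marker lists include genes that the gate limited (Col1a1, Col3a1 and Dcn, and the C1q genes). In B cells Ctsb stood at 180 and 504 CPM and Lgals3 at 107 and 649 CPM, also lower in the knockout library. The part of free RNA in the lower genes was not tested.

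**Figure D5:**
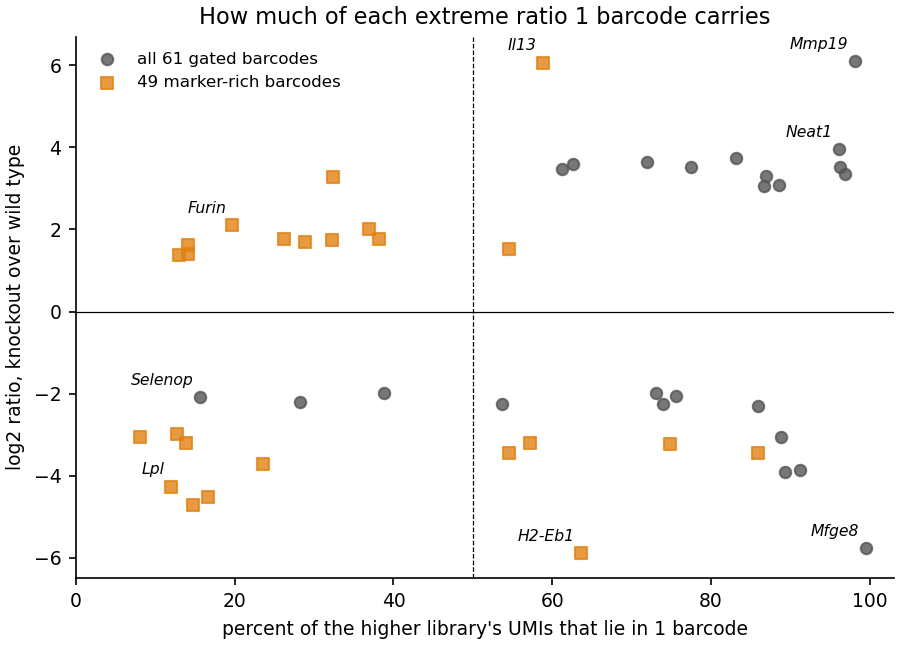
Each point is 1 of the 12 highest or 12 lowest ratios, with the log2 ratio of knockout over wild type on the vertical axis and the percent of the higher library's UMIs that lie in 1 barcode on the horizontal axis; grey circles are the whole gate and orange squares the marker-rich barcodes. Grey points crowd to the right of the dashed line at 50%, from Mmp19 at 98.1% to Mki67 at 61.2% among the highest, and most orange points lie to its left.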

How the data were processed

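The authors deposited 1 gene-by-barcode matrix of UMI counts per library, with 32285 genes. Cell Ranger 5.0.0, Seurat 4.1.1 and the mm10 build are listed in the submitters' processing notes. The labels describe 10x Genomics 3' libraries from collagenase-digested, red cell-lysed tissue, give 10000 to 13000 loaded cells per channel and call both libraries a single batch. A description field names embryonic hindlimb, against every other label, which name adipose tissue. In the wild type there are 15555 barcodes, more than were loaded, and in the knockout 10631; the totals are 75436677 and 87015918 UMIs.

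Counts were used as deposited (Python 3.11.15, numpy 2.4.6, scipy 1.17.1). The members, the 24 gene lists and the named genes rule were chosen with earlier results of these data known. UMIs were summed over gated barcodes and divided by their total (CPM). With 1 library per genotype there was no test: levels carry exact Poisson intervals, ratios exact conditional intervals and shares Clopper-Pearson intervals. PCR duplicates are removed by UMIs, and the intervals cover counting error only. Genes counted as different were at least 2-fold apart, with 100 CPM averaged over the libraries and 30 UMIs where higher; for list members 10 UMIs sufficed. The text names the 12 highest and 12 lowest ratios, the 20 leading genes of the gate and list members, without ribosomal, mitochondrial, haemoglobin, immunoglobulin, receptor segment and predicted genes; haemoglobin genes appear only as markers of free RNA. Clusters were built with scanpy 1.11.5 and leidenalg 0.10.2 on 2000 variable genes without the gate genes, with 30 components, 20 neighbours and resolution 1.0. Doublets were scored with Scrublet at an expected rate of 0.08, and none were removed. The subset of at least 5 marker UMIs per 10000 and its Cd3-positive counterpart were chosen after seeing the data. The computation was tested on simulated data. A few genes that the rule names are not reported here.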

Additional observations from a re-analysis of the deposited data

How the results depend on the processing

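The gate's share of passing barcodes overlapped between the libraries under every alternative that changed the gate, other than the whole cluster. Shares moved with the definition. They were 0.5478% (knockout) and 0.4509% (wild type) with at least 2 marker UMIs, and 0.1245% and 0.09171% when the gate was applied after thinning to 1500 UMIs. They were 0.5843% and 0.4255% of barcodes with a Ptprc UMI, and 1.976% and 3.371% of gated T, NK and ILC2 barcodes. The wild-type share was 0.1834% with at least 4 marker UMIs and 0.3821% without the Il7r requirement. The cluster that holds most gated barcodes gave 0.747% and 2.69%, and it held 94.44% of knockout and 72.22% of wild-type Il5 UMIs.

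Genes 2-fold higher and lower in the knockout, 177 and 80 in the whole gate, were 278 and 37 with at least 4 marker UMIs, 66 and 58 in the cluster, 325 and 85 at a minimum of 50 CPM, 326 and 85 with no CPM minimum, 317 and 199 at 1.5-fold and 210 and 66 with median-of-ratios scaling. Lower genes outnumbered higher ones, the opposite balance, without any Cd3 UMI (84 and 89), in the marker-rich barcodes (36 and 61), without gated barcodes above 10000 UMIs (45 and 74), with means of per-barcode CPM (47 and 54) and with each barcode thinned to 1500 UMIs (12 and 17). The limits of 5 per 10000 and of 10000 UMIs were chosen after seeing the data.

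Some log2 ratios of the whole gate changed sign. With at least 4 marker UMIs Mfge8 was 2.72, Ccl5 0.19, Acp5 0.79 and Atp6v0d2 0.40. Without any Cd3 UMI Neat1 was -0.35, Cpeb4 -0.76, Mtmr10 -1.44 and Ccl5 1.67. In the cluster Mmp19 was -3.48, Neat1 -0.18, Ncf1 -2.25, Top2a -1.48, Cpeb4 -1.47, Mki67 -2.08, Mtmr10 -2.29, Frrs1 -2.71, Itga5 -1.12 and Hes1 0.06. In the marker-rich barcodes Ncf1 and Top2a were -0.03, Mtmr10 -1.20 and Mfge8 1.38. Without barcodes above 10000 UMIs Ncf1 was -0.74, Mtmr10 -1.10 and Mfge8 0.49. After thinning Cpeb4 was -1.06 and Acp5 0.11. A count of 0 is read as 3 in these ratios, so the marker-rich values of Ncf1 and Top2a (0 knockout and 4 wild-type UMIs each), Ncf1 without barcodes above 10000 UMIs (0 and 7) and both thinned values (1 and 0, 0 and 4) show no direction. The cause of these changes was not tested.

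No paired analysis was possible because each genotype has 1 library, and for the same reason none was left out in turn. With 18 and 31 marker-rich barcodes, a gene carried by few of them has a level that rests on those few.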
